A study of Homo sapiens with 6 samples.

Results

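The MAGE family and other cancer-testis antigens are described here across 3 human cell lines. Members were taken by symbol: MAGE genes of the subfamilies A to L, SSX, GAGE, XAGE and CT45 genes, PRAME, ACTL8, CTAG1B and CTAG2. This rule found 85 of the 23340 genes in the deposited tables. SSX2IP matched by its name alone, since it encodes a partner protein of SSX2 and is no SSX gene. RNA was sequenced as 50-bp paired-end reads from HT-29, a colorectal adenocarcinoma line, MDA-MB-436, a breast adenocarcinoma line, and MCF10A, a non-tumorigenic mammary epithelial line.

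Each line had 2 libraries, one labelled 25M reads and one deeper, and values are given in that order. HT-29 cells were kept in McCoy's 5A with FBS at 10% and given 200 U per ml of IFN-γ over 24 hours. No untreated HT-29 cells were analysed here, so line and IFN-γ cannot be told apart. MDA-MB-436 cells were grown in L-15 with FBS at 10%. MCF10A cells were grown in DMEM/F12 with 5% horse serum, EGF at 20 ng per ml, hydrocortisone at 500 ng per ml, cholera toxin at 100 ng per ml and insulin at 10 µg per ml. The recovered depth was 18.4 and 50.2M reads for the HT-29-labelled libraries, 16.7 and 56.4M for the MDA-MB-436-labelled ones, and 18.3 and 69.5M for MCF10A. Levels are normalised read counts, and 1 read was worth 0.491 to 2.06 of them, depending on the library. The labels do not say whether a line's libraries are separate cultures. The p-values then reflect only how far these libraries differ within a line, which may be technical.

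Cancer-testis antigens are proteins whose genes are normally active in the male germ line and nearly silent in other adult tissues, and that many tumours express. T cells can recognise peptides from them, which has made MAGEA4, PRAME and NY-ESO-1, the product of CTAG1B, targets of immunotherapy. MAGE proteins share a MAGE homology domain, through which several of them bind E3 ubiquitin ligases and direct them to substrates. Type I MAGE genes (A, B and C) lie in clusters on the X chromosome and are the cancer-testis antigens proper. Type II MAGE genes (D, E, F, H and L) are expressed in many normal tissues. Promoters of type I genes are typically methylated in somatic cells.

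Marker genes went against 2 of the labels. KRT20, an intestinal keratin, stood at 0 and 0.547 normalised counts in the HT-29-labelled libraries, at 29900 and 30880 in the MDA-MB-436-labelled ones, and at 0 and 1.47 in MCF10A. VIL1, which encodes villin, had 2055 and 2198 normalised counts in the MDA-MB-436-labelled libraries and 0 in the other 4. VIM, the mesenchymal filament vimentin, had 36599 and 35267 in the HT-29-labelled libraries, 16.5 and 7.39 in the MDA-MB-436-labelled ones, and 25901 and 26246 in MCF10A. Over 8 intestinal markers the summed level was 9.001 and 10.9 in the HT-29-labelled libraries, 76230 and 79909 in the MDA-MB-436-labelled ones, and 44.9 and 43.2 in MCF10A. The colon line's defining genes were thus found in the libraries labelled as the breast carcinoma line. Groups follow the labels all the same, and so do the directions given. Were these 2 labels exchanged, the first 2 comparisons would trade names and the third would change sign. The IFN-γ given to HT-29 cells would then belong to the MDA-MB-436-labelled libraries.

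The promoters shown are those of the members that the results turn on: MAGEA4 and PRAME, whose levels were far higher in the HT-29-labelled libraries than in the other 4, and MAGEA3 and MAGEA12, whose levels were highest in the MDA-MB-436-labelled ones. Each is a RefSeq window of 300 bases on GRCh38.p14, from 250 bases before to 50 bases after an annotated start, read along the gene's strand. Capitals mark GCCACTGACTTGCGC, a run of 15 bases that the MAGEA windows share. In PRAME they mark TTCCGG, which is CCGGAA on the other strand and is the core of ETS factor binding sites. The MAGEA3 window holds CCGGAA too, left in small letters. The PRAME window was chosen for this motif, which the others of its 3 listed windows lack.
MAGEA4 (chrX:151912639-151912938, plus strand): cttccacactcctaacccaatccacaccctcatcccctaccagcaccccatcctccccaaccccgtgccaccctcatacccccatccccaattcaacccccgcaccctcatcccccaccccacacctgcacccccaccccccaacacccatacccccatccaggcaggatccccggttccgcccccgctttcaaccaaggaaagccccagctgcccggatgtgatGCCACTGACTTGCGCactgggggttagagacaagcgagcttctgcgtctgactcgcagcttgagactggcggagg
MAGEA3 (chrX:152698544-152698843, plus strand): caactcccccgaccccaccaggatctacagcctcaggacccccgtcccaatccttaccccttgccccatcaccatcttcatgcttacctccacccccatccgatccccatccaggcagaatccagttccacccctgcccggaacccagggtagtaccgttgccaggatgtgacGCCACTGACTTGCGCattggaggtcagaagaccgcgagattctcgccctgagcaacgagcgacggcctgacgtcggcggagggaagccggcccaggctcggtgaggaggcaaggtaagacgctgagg
MAGEA12 (chrX:152733507-152733806, plus strand): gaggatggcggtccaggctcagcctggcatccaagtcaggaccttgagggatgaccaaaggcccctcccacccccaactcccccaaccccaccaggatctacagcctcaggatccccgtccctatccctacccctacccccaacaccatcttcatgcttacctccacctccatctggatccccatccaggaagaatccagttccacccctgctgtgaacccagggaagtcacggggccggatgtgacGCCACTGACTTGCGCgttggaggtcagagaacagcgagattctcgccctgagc
PRAME (chr22:22559216-22559515, minus strand): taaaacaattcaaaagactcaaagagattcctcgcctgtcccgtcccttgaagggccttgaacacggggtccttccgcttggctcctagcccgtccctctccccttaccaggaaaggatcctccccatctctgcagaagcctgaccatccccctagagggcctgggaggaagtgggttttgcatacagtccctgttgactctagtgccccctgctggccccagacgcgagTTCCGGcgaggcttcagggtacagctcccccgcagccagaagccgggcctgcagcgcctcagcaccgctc

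The MAGEA6 window (chrX:152769640-152769939, minus strand) had the same letters as that of MAGEA3 at 300 of 300 bases. Between the other pairs of these 4 MAGEA windows the identity was 51.6% to 57.4%, over end-to-end alignments with gaps counted. In these pairs the run stands at different places, so the windows cover partly different stretches and their unpaired ends count as gaps. The values therefore understate how alike the stretches are that both windows hold. The run GCCACTGACTTGCGC, which was found by comparing these windows, occurred on either strand in 15 of 35116 RefSeq promoter windows, 0.0427% of them, and these belonged to 10 genes. They were MAGEA2, MAGEA2B, MAGEA3, MAGEA4, MAGEA6 and MAGEA12, the non-coding MAGEA3-DT and MAGEA6-DT, and CSAG1 and CSAG3, which lie among the MAGEA genes. CCGGAA on either strand occurred in 17.2% of all windows and in those of 8 of the 57 members with a window. The median number of CG dinucleotides was 13 over the 77 member windows and 14 over all windows. The run and the CG counts are descriptions, since methylation was not measured here.

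Expression was concentrated in few members and mostly in the HT-29-labelled libraries. Of the 85 members, 55 had 0 reads in all 6 libraries, 12 had reads but stayed under 10 normalised counts, and 18 reached 10 in at least 1 library. Members with any read numbered 29 in the HT-29-labelled libraries, 15 in the MDA-MB-436-labelled ones and 12 in MCF10A. Those at 10 or more in both libraries of the line numbered 16, 7 and 5 in the same order. Having any read can rest on 1 read, as for MAGEA10 in the MDA-MB-436-labelled libraries and in MCF10A.

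MAGED1, MAGED2, MAGEF1 and SSX2IP had high levels in every library and are set apart in this sum. The other 81 members summed to 42189 and 41659 normalised counts in the HT-29-labelled libraries, against 313 and 322 in the MDA-MB-436-labelled ones and 29.96 and 35.8 in MCF10A. MAGEA4 alone held 76.05% and 75.5% of the sum in the HT-29-labelled libraries. The lines did not overlap in this sum, and the libraries of each line lay close together.

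**Figure D1:**
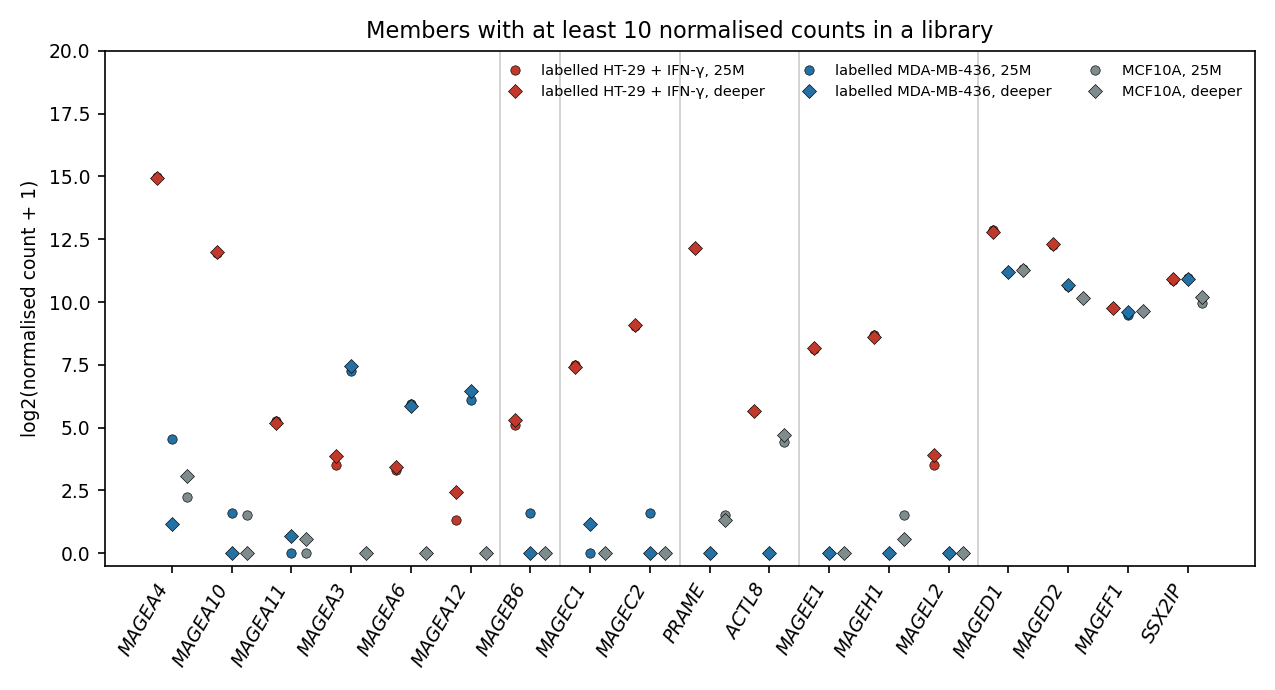
Level of each of the 18 members that reached 10 normalised counts, as log2(normalised count + 1), in each of the 6 libraries (circles 25M, diamonds deeper, grey MCF10A). Red points (labelled HT-29) lie far above the others for MAGEA4, MAGEA10, PRAME, MAGEC1, MAGEC2, MAGEE1 and MAGEH1, blue points (labelled MDA-MB-436) lie highest for MAGEA3, MAGEA6 and MAGEA12, and the 4 genes at the right are high in every library.

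The first comparison set the HT-29-labelled libraries against MCF10A. Of the 18 members tested, 16 were higher, 0 were lower, and MAGEF1 and SSX2IP passed no call, where a call needs an adjusted p below 0.05 by limma and a log2 fold change of 1 or more in size. Over all 15638 genes tested, 28.4% were called higher and 18.1% lower, with a median log2 fold change of 0.13. The members' count cannot be read against that share. A gene was tested at 10 normalised counts in 2 libraries, and only 8 of the 18 reached that outside the HT-29-labelled libraries, so most of the others had to differ. Without either of these libraries 9 members were tested and 6 were called higher. The members' median log2 fold change was 4.33, or 4.22 with genes at 0 reads in MCF10A set to the bound of 3 reads over the line. The filter bears on this median as it does on the count.

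MAGEA4 had 32084 and 31452 normalised counts in the HT-29-labelled libraries, against 3.75 and 7.36 in MCF10A. Reads numbered 78869 against 17, which made it 4782-fold higher (95% counting interval 2987 to 8209). The log2 fold change was 12.30 (SE 1.22, adjusted p = 6.89e-04 by limma). Per kilobase of merged exons it was the highest member in the HT-29-labelled libraries, at 10311 ± 145 normalised counts (SD, n = 2). In a bulk library few cells with much of an RNA and many cells with little cannot be told apart. An antisense gene, MAGEA4-AS1, overlaps it, and as the strand setting is not stated in any source used here the reads of these genes cannot be told apart.

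MAGEA10, another type I antigen recognised by T cells, had 3930 and 4092 normalised counts in the HT-29-labelled libraries and 1.87 and 0 in MCF10A, with 10098 reads against 1. Its log2 fold change was 11.21 (SE 0.626, adjusted p = 8.92e-07 by limma). An annotated readthrough transcript, MAGEA10-MAGEA5, overlaps it. MAGEA11, a coregulator of the androgen receptor, had 37.5 and 35.0 against 0 and 0.491. It was 91.7-fold higher (interval 16.1 to 3664). These genes had the same pattern at very different heights, since per kilobase MAGEA10 averaged 1384 ± 39.4 and MAGEA11 10.5 ± 0.507 in the HT-29-labelled libraries (SD, n = 2 each).

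PRAME, a leucine-rich repeat protein that serves as a substrate receptor of cullin-2 ubiquitin ligases, lies outside the X chromosome, on chromosome 22. It had 4590 and 4545 normalised counts in the HT-29-labelled libraries, 0 in both MDA-MB-436-labelled ones, and 1.87 and 1.47 in MCF10A. Against MCF10A it was 2929-fold higher (interval 1144 to 10751), and the log2 fold change was 10.74 (SE 0.242, adjusted p = 7.15e-09 by limma). Against the MDA-MB-436-labelled libraries it was at least 3204-fold higher, the floor being 3 reads over that line. Per kilobase its 1210 ± 8.52 in the HT-29-labelled libraries did not differ from the 1201 ± 45.1 of MAGED1 beyond their spread (SD, n = 2 each). None of its 50-base windows occurs in a gene elsewhere. An annotated antisense gene overlaps it.

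MAGEC1 and MAGEC2, known as CT7 and CT10, encode type I MAGE proteins, of which MAGEC2 binds the ligase TRIM28. MAGEC2 had 534 and 542.8 normalised counts in the HT-29-labelled libraries, against 0 in MCF10A, and was at least 463-fold higher. MAGEC1 had 181.5 and 167.4, against 0 in MCF10A, and was at least 146.7-fold higher. MAGEC3, the other gene of the subfamily, had 5 reads in the HT-29-labelled libraries and 1 in MCF10A. MAGEB6 was the only MAGE-B gene to reach 10 normalised counts, at 33.0 and 38.9 in the HT-29-labelled libraries, against 0 in MCF10A, at least 32.0-fold higher. All 3 tested genes were called, with log2 fold changes of 9.08, 7.45 and 5.20 for MAGEC2, MAGEC1 and MAGEB6 (adjusted p from 9.76e-07 to 4.92e-05 by limma).

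MAGEA3, MAGEA6 and MAGEA12 were also higher than in MCF10A, where each had 0 reads, but at low levels. MAGEA3 had 10.5 and 13.7 normalised counts in the HT-29-labelled libraries, MAGEA6 9.001 and 9.849, and MAGEA12 1.5 and 4.38. The bounds were at least 11.0-fold, 8.25-fold and 3.09-fold, on 32, 24 and 9 reads. The call for MAGEA12 ended at a pseudocount of 5, where its log2 fold change was 0.64 in place of 1.87.

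ACTL8, an actin-like protein of the testis, was also expressed in MCF10A. It had 49.5 and 50.3 normalised counts in the HT-29-labelled libraries, 0 in both MDA-MB-436-labelled ones, and 20.6 and 25.0 in MCF10A. It was 2.08-fold higher than in MCF10A (interval 1.52 to 2.87), and the log2 fold change was 1.10 (SE 0.297, adjusted p = 0.00888 by limma), close to the threshold of 1. The call ended at a pseudocount of 5 (0.99) and by edgeR (0.97). It also ended without the 25M MCF10A library (0.97), without the 25M HT-29-labelled library (1.11, adjusted p = 0.055 by limma) and without the deeper one (1.09, adjusted p = 0.0587 by limma).

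Among the 6 tested type II genes 3 were near 0 outside the HT-29-labelled libraries, while MAGED4, MAGED4B and MAGEE2, which were not tested, had 0 reads in all 6. MAGEE1, which binds dystrobrevins, had 279 and 290.5 normalised counts there and 0 in the other 4 libraries, at least 246-fold higher than MCF10A. MAGEH1 had 415.5 and 385.8, against 1.87 and 0.491 in MCF10A, which was 506-fold higher (interval 139.7 to 4185). MAGEL2, which acts with TRIM27 in endosomal recycling and lies in the imprinted region deleted in Prader-Willi syndrome, had 10.5 and 14.2 against 0, at least 11.3-fold higher. The 3 log2 fold changes were 8.16, 7.60 and 3.73 (adjusted p from 1.28e-07 to 6.66e-05 by limma).

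MAGED1 and MAGED2 were high in every library and higher still in the HT-29-labelled ones. MAGED1, an adaptor of the neurotrophin receptor p75NTR, had 7415 and 7031 normalised counts in the HT-29-labelled libraries, 2328 and 2340 in the MDA-MB-436-labelled ones, and 2550 and 2478 in MCF10A. It was 2.86-fold higher than in MCF10A (interval 2.78 to 2.95; log2 fold change 1.52, SE 0.0346, adjusted p = 7.45e-09 by limma). MAGED2, which regulates salt transporters of the kidney before birth, had 4902 and 5042 against 1135 and 1143 in MCF10A, 4.39-fold higher (log2 fold change 2.12, SE 0.0328, adjusted p = 1.34e-09 by limma). The counting errors of these genes were small, and the groups did not overlap. MAGEF1, which directs a ligase to an iron-sulphur cluster assembly protein, had 858.1 and 873.3 against 808.9 and 795.3 and missed the call (log2 fold change 0.11, adjusted p = 0.095 by limma).

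SSX2IP, a centrosome and cell junction protein, had 1881 and 1952 normalised counts in the HT-29-labelled libraries, 2011 and 1932 in the MDA-MB-436-labelled ones, and 1002 and 1172 in MCF10A. Its log2 fold change over MCF10A was 0.82 in the HT-29-labelled libraries (adjusted p = 1.27e-05) and 0.86 in the MDA-MB-436-labelled ones (adjusted p = 8.63e-06 by limma), both under the threshold of 1. Under scaling by library size alone the median of all genes shifted by 0.31 in the first of these comparisons, and SSX2IP then passed the call at 1.13. Between the HT-29-labelled libraries and the MDA-MB-436-labelled ones the groups overlapped, and the log2 fold change of -0.04 turned to 0.29 under that scaling, which moved the median of all genes there by 0.33.

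**Figure D2:**
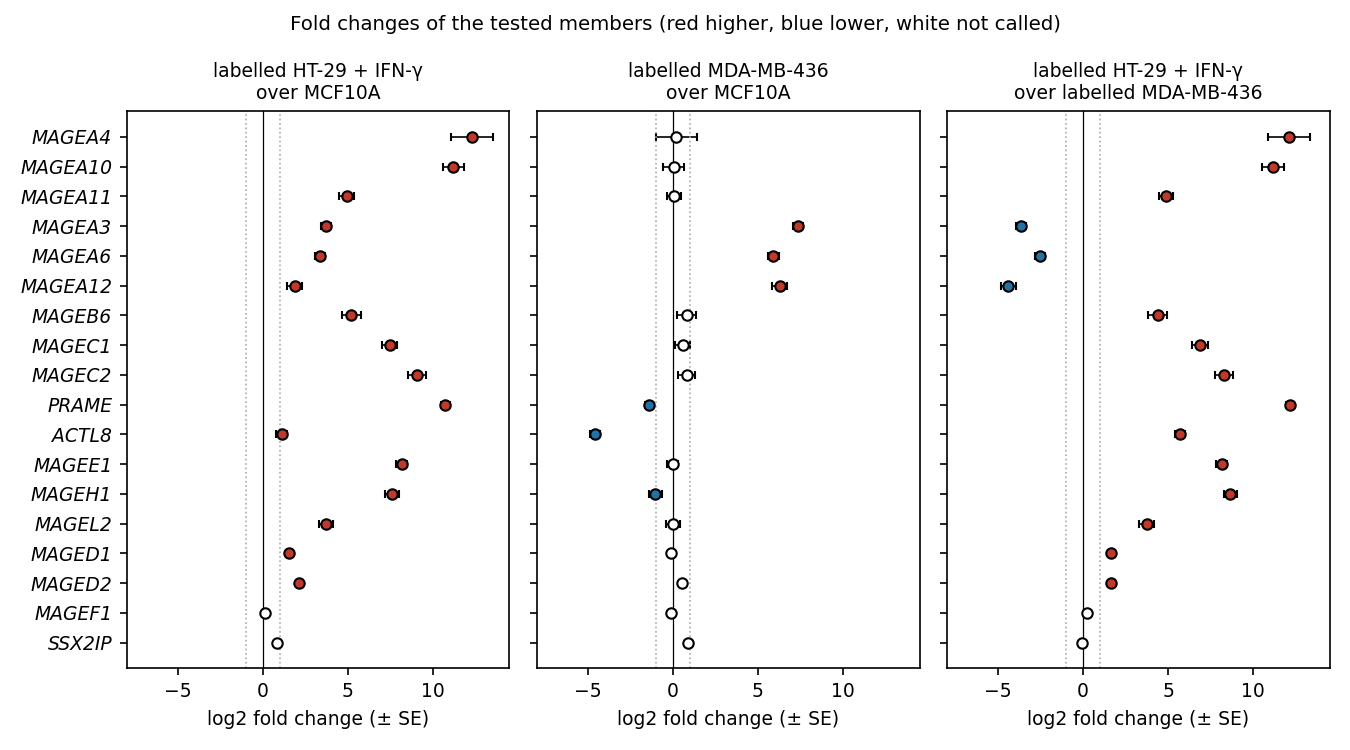
log2 fold change on the log2(normalised count + 1) scale (± SE) of the 18 tested members in the 3 comparisons, red where called higher, blue where called lower and white where not called, with dotted lines at the threshold of 1 in either direction. MAGEA3, MAGEA6 and MAGEA12 are the only members called higher in the middle panel and the only ones called lower in the right one.

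The second comparison set the MDA-MB-436-labelled libraries against MCF10A. Of the 18 tested members, 3 were higher, 3 were lower and 12 passed no call, beside 25.6% of all genes called higher and 23.7% lower. The members' median log2 fold change was 0.13, or 0 with bounds in place of fitted values, and that of all genes was 0. Of the 18, 10 were tested only through the HT-29-labelled libraries and so were low in both lines compared here. Neither this median nor the counts of members lower or without a call can therefore be read against all genes. The count of 3 higher cannot be read against its share either. MAGEA6 and MAGEA12 reached 10 normalised counts in 2 libraries only through the MDA-MB-436-labelled ones and so had to differ. Without the 25M MDA-MB-436-labelled library neither was tested, and the 2 members called higher were MAGEA3 and MAGEC1. Without the deeper one neither was tested, and the 4 called higher were MAGEA3, MAGEA4, MAGEB6 and MAGEC2. Under a filter of 10 CPM in 2 libraries, 10 members were tested, none of MAGEA3, MAGEA6 and MAGEA12 among them.

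MAGEA3 and MAGEA6 encode near-identical proteins that bind TRIM28, and MAGEA12 is a further type I antigen of the same X-linked cluster. MAGEA3 had 152.3 and 173.7 normalised counts in the MDA-MB-436-labelled libraries, against 0 in MCF10A, at least 144.6-fold higher (log2 fold change 7.36, SE 0.294, adjusted p = 1.03e-07 by limma). MAGEA6 had 59.7 and 57.9, against 0, at least 49.97-fold higher (log2 fold change 5.90, SE 0.306, adjusted p = 4.84e-07 by limma). MAGEA12 had 67.9 and 86.2, against 0, at least 70.3-fold higher (log2 fold change 6.28, SE 0.444, adjusted p = 3.28e-06 by limma). In each case both MDA-MB-436-labelled libraries stood above both of the other lines. Of the 50-base windows in MAGEA3 transcripts 56.5% occur in another gene, mostly MAGEA6, and of those in MAGEA6 53.9%, mostly MAGEA3. The split of reads between these genes is therefore uncertain, while MAGEA12 shared 13.8% of its windows, mostly with MAGEA2.

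MAGEA4 was near 0 in both lines of this comparison, and its libraries disagreed. It had 22.6 and 1.23 normalised counts in the MDA-MB-436-labelled libraries, on 11 and 2 reads, against 3.75 and 7.36 in MCF10A. The log2 fold change was 0.21 (adjusted p = 0.898 by limma). It was -1.50 without the 25M MDA-MB-436-labelled library (adjusted p = 0.00412) and 1.91 without the deeper one (adjusted p = 0.00116), so a single library set its direction. It was -0.20 without the 25M MCF10A library and -0.15 by edgeR.

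The 3 members called lower were ACTL8, PRAME and MAGEH1, each with 0 reads in the MDA-MB-436-labelled libraries. ACTL8 had 62 reads in MCF10A and was at least 16.96-fold lower (log2 fold change -4.57, adjusted p = 1.96e-06 by limma). PRAME had 4 reads in MCF10A and MAGEH1 had 2, so these calls rest on a handful of reads. MAGEH1 (log2 fold change -1.05, adjusted p = 0.0351) missed the call without the 25M MCF10A library (-0.58) and without either MDA-MB-436-labelled library (adjusted p = 0.0726 and 0.0723 by limma). MAGEH1 also missed it by edgeR and DESeq2, and PRAME (log2 fold change -1.41) missed it by DESeq2.

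The other members showed no call here. MAGEE1 and MAGEL2 had 0 reads in both lines, and MAGEA10, MAGEA11, MAGEB6, MAGEC1 and MAGEC2 had at most 2 reads in either. MAGEB6 and MAGEC2 passed the call without the deeper MDA-MB-436-labelled library (1.61 each) and MAGEC1 without the 25M one (1.16), in each case on 1 or 2 reads against 0. MAGED2 had 1602 and 1629 normalised counts against 1135 and 1143 in MCF10A, and its log2 fold change was 0.50 (SE 0.0328, adjusted p = 1.98e-06 by limma). MAGED1 and MAGEF1 differed by less, at -0.11 and -0.13.

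The third comparison set the HT-29-labelled libraries against the MDA-MB-436-labelled ones, and all 3 comparisons share libraries in pairs. Of the 18 tested members, 13 were higher and 3 lower, beside 29.9% and 23.5% of all genes. Of the 18, 10 were tested only through the HT-29-labelled libraries, and MAGEA6 and MAGEA12 only through the MDA-MB-436-labelled ones. Neither the counts nor the members' median can therefore be read against those of all genes. Without either HT-29-labelled library, 4 of the 9 members still tested were higher. Without either MDA-MB-436-labelled library, 1 of the 16 members still tested was lower. The members' median log2 fold change was 4.63 with and without bounds, and that of all genes was 0.09.

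The members called lower were MAGEA3, MAGEA6 and MAGEA12, so the type I MAGE-A genes were divided between these lines. MAGEA12 was 22.7-fold lower (interval 11.7 to 50.6; log2 fold change -4.40, SE 0.444, adjusted p = 2.88e-05 by limma). MAGEA3 was 13.2-fold lower (interval 9.15 to 19.5; log2 fold change -3.66, SE 0.294, adjusted p = 7.02e-06 by limma). MAGEA6 was 6.06-fold lower (interval 3.89 to 9.82; log2 fold change -2.52, SE 0.306, adjusted p = 9.27e-05 by limma). MAGEA4, MAGEA10 and MAGEA11 went the other way, with log2 fold changes of 12.09, 11.16 and 4.87 (adjusted p from 7.42e-07 to 6.80e-04 by limma).

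Outside the HT-29-labelled libraries the other type I genes called higher were at a few reads or none. In the MDA-MB-436-labelled libraries MAGEA10, MAGEB6 and MAGEC2 had 2.06 and 0 normalised counts each, on 1 read. MAGEA11 had 0 and 0.616 there, and MAGEC1 had 0 and 1.23. The HT-29-labelled libraries stood above all of these, with log2 fold changes of 8.27 for MAGEC2, 6.88 for MAGEC1 and 4.40 for MAGEB6, and of 12.16 for PRAME (adjusted p from 2.31e-09 to 1.25e-04 by limma). ACTL8 was at least 35.2-fold higher, MAGEE1 at least 202-fold and MAGEH1 at least 276.8-fold, each against 0 reads. MAGED1 was 3.05-fold higher (interval 2.96 to 3.15) and MAGED2 3.09-fold (interval 2.97 to 3.21).

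The run GCCACTGACTTGCGC stands in 4 of the 5 RefSeq promoter windows of MAGEA4, of which one with the run is printed above, as well as in every listed window of MAGEA3, MAGEA6 and MAGEA12. The run was found by comparing windows of these same genes, which lay on both sides of this comparison. Its presence on both sides was therefore given by that choice and is no result. MAGEA2 and MAGEA2B, whose promoter windows hold it too, had 0 reads in all 6 libraries. Of the windows in MAGEA2 transcripts 96.4% occur in another gene, mostly MAGEA2B, and of those in MAGEA2B 88.1%, mostly MAGEA2. Reads of these genes may therefore have gone unassigned, and their 0 cannot be read as a lack of RNA.

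The large families of near-identical copies were almost without assigned reads. GAGE genes had 0 reads in 21 of 22 cases, XAGE genes in 8 of 9, CT45 genes in 5 of 6 and the SSX genes in 8 of 10, and both CTAG genes had none. The exceptions, GAGE10, XAGE3, CT45A5 and SSX5, had 1 read each, and SSX1 had 13 reads, which lay in the HT-29-labelled libraries. The 12 members with reads under 10 normalised counts had 1 to 13 reads in total, and 11 of them had most of their reads in the HT-29-labelled libraries. Besides those 5 and MAGEC3 they were MAGEA1 with 9 reads, MAGEA8 with 11, MAGEA5 and MAGEB3 with 1 each, MAGEB16 with 4 and MAGEB18 with 5.

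How far a count of 0 can be read depends on whether reads of a gene can be placed. On the GENCODE v29 transcripts, 69 of the 85 members matched by name and 16 did not. Of the 39 matched members at 0, 28 shared at least 50% of their 50-base windows with a gene elsewhere, with a median of 89.9%. Of the 30 members with reads, 3 did, with a median of 0.622%. How the counting treated reads in shared windows is not stated in any source used here. The 7 members at 0 that shared under 10% of their windows were MAGEB1, MAGEB2, MAGEB4, MAGEB10, MAGEE2, XAGE2 and XAGE5. MAGEB1 and MAGEB4 overlap each other on the same strand, which the count of shared windows leaves out, so their reads may have gone unassigned. XAGE2B was among the members not matched by name, so windows that XAGE2 may share with it were not counted. The 0 of XAGE2 therefore cannot be read as a lack of RNA either. RNA of MAGEB2, MAGEB10, MAGEE2 and XAGE5 was not detectable at this depth.

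**Figure D3:**
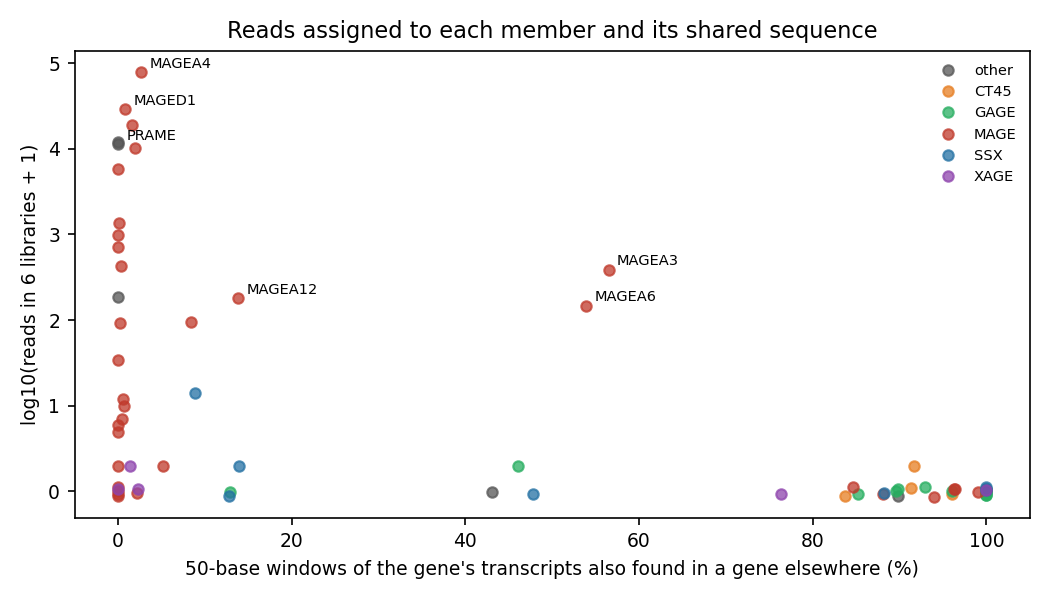
Reads in all 6 libraries, as log10(reads + 1), of the 69 members matched to GENCODE v29, against the percent of their 50-base windows also found in a gene elsewhere (points at 0 reads are spread vertically for visibility). Members with many reads lie at the left, apart from MAGEA3 and MAGEA6 at 56.5% and 53.9%, and most members at 0 lie at the right.

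Other cancer-testis antigens outside the rule were mostly at or near 0 as well. Of 65 listed genes, 32 had 0 reads in all libraries. Shared windows were not counted for this list, so a 0 cannot be read as a lack of RNA where genes have near-identical copies. CTAG1A, at 0 reads, was the gene with which CTAG1B shared most windows. Of the 65, 12 were tested. Against MCF10A, 6 were higher in the HT-29-labelled libraries and 0 lower, while 4 were higher and 4 lower in the MDA-MB-436-labelled ones. Over all genes the shares were 28.4% higher and 18.1% lower for the HT-29-labelled libraries, and 25.6% and 23.7% for the MDA-MB-436-labelled ones. Of the 12 genes, 5 were tested only through the HT-29-labelled libraries, DDX43 and CXorf61 among them, and ROPN1B only through the MDA-MB-436-labelled ones, so these counts cannot be read against those shares. DDX43, an RNA helicase known as HAGE, had 1269 and 1273 normalised counts in the HT-29-labelled libraries, against 0 in the MDA-MB-436-labelled ones and 3.75 and 0 in MCF10A. CXorf61, known as KK-LC-1, had 277.5 and 284 in the HT-29-labelled libraries and 0 in the other 4. CSAG1, the neighbour of MAGEA12, was higher than in MCF10A in both lines, with 28.5 and 20.8 in the HT-29-labelled libraries and 26.8 and 28.3 in the MDA-MB-436-labelled ones, against 0. The list's median log2 fold changes over MCF10A were 2.09 for the HT-29-labelled libraries and -0.27 for the MDA-MB-436-labelled ones, which was 0 with bounds. Those of all genes were 0.13 and 0, but the filter bears on the list's medians as on its counts.

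Of this list's genes, those lower in the MDA-MB-436-labelled libraries than in MCF10A included CABYR, a calcium-binding sperm tail protein, and PLAC1, a placental protein. CABYR had 12.3 and 8.62 normalised counts in the MDA-MB-436-labelled libraries, against 134.8 and 124.7 in MCF10A (log2 fold change -3.53, adjusted p = 8.68e-07 by limma). PLAC1 had 8.23 and 4.31 against 24.3 and 15.7 (log2 fold change -1.56, adjusted p = 0.00705 by limma). ROPN1B, a sperm flagellar protein, had 10.3 and 25.3 in the MDA-MB-436-labelled libraries, against 1.87 and 0 in MCF10A (log2 fold change 3.35, adjusted p = 0.00303 by limma). Between the HT-29-labelled libraries and the MDA-MB-436-labelled ones, 8 of the 12 were higher and 2 lower, beside 29.9% and 23.5% of all genes. Lower were ROPN1B and ZNF165, a zinc finger protein. Because of the filter these counts cannot be read against those shares either.

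Germ cell and meiosis genes were a second list of this kind, with 13 of 33 tested and 7 at 0 in all libraries. In the HT-29-labelled libraries, 9 were higher than in MCF10A and 1, the piRNA-binding PIWIL1, was lower, beside 28.4% and 18.1% of all genes. Of the 13, 8 were tested only with the help of the HT-29-labelled libraries, HORMAD1, MAEL and TEX15 among them, so this count cannot be read against those shares. HORMAD1, a meiotic chromosome axis protein, had 1455 and 1530 normalised counts in the HT-29-labelled libraries, 0 and 2.46 in the MDA-MB-436-labelled ones, and 0 and 0.491 in MCF10A. MAEL, a piRNA pathway protein, had 585 and 613.9, against 2.06 and 0 in the MDA-MB-436-labelled libraries and 0 and 0.491 in MCF10A. In the MDA-MB-436-labelled libraries, 5 were higher and 1, the recombinase DMC1, was lower than in MCF10A, beside 25.6% and 23.7% of all genes. DMC1 had 0 and 1.23 there, against 22.5 and 17.7 in MCF10A. REC8, a meiotic cohesin subunit, had 450.8 and 445.9 there, against 14.98 and 19.64 in MCF10A, and STK31, which was tested only through these libraries, had 18.5 and 21.6 against 0. The median log2 fold change over MCF10A was 3.11 in the HT-29-labelled libraries and 0.93 in the MDA-MB-436-labelled ones, beside 0.13 and 0 for all genes. Between these lines 7 genes were higher and 3 lower in the HT-29-labelled libraries, beside 29.9% and 23.5% of all genes. The filter bears on these counts and on the list's medians as well, so they cannot be read against those of all genes either.

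Defining genes of male germ cells were near 0 throughout. Of 8 such markers (DAZL, DDX4, SYCP3, PRM1, PRM2, TNP1, ACR and ZPBP), 4 had 0 reads in all 6 libraries. Their summed level was 10.5 and 15.9 normalised counts in the HT-29-labelled libraries, 6.18 and 10.5 in the MDA-MB-436-labelled ones, and 7.49 and 8.84 in MCF10A.

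Relatives of the MAGE family outside the rule, and the proteins that MAGE or PRAME work with, formed another list, with 20 of 23 names found and 20 tested. Against MCF10A, 5 were higher and 0 lower in the HT-29-labelled libraries, and 4 were higher and 1 lower in the MDA-MB-436-labelled ones. The shares of all genes were 28.4% and 18.1%, and 25.6% and 23.7%, and no count of this list lay above them. The list's median log2 fold changes were -0.13 and 0.01, beside 0.13 and 0 for all genes. NDN and TRO were tested only through the HT-29-labelled libraries. Further type II MAGE genes led the first set. NDN, the imprinted MAGE gene necdin, had 1605 and 1546 normalised counts in the HT-29-labelled libraries, 0 in the MDA-MB-436-labelled ones, and 0 and 0.491 in MCF10A. TRO, the MAGE gene trophinin, had 661.5 and 635.3 in the HT-29-labelled libraries and 0 in the other 4.

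Ubiquitin ligases and their subunits made up much of the rest of this list. LNX1, a ubiquitin ligase that binds MAGE proteins, had 893.5 and 820.4 normalised counts in the MDA-MB-436-labelled libraries, against 86.1 and 105.6 in MCF10A (log2 fold change 3.15, SE 0.124, adjusted p = 9.27e-08 by limma). EID3, a subunit of the SMC5-SMC6 complex, had 26.8 and 20.9 against 0 and 1.47. RBX1, the RING subunit of cullin ligases, was lower there, at 926.4 and 1062 against 2041 and 2137 (log2 fold change -1.07, adjusted p = 1.24e-06 by limma). TRIM27, the partner of MAGEL2, had 1703 and 1745 in the HT-29-labelled libraries, against 3988 and 4139 in the MDA-MB-436-labelled ones (log2 fold change -1.24, adjusted p = 9.94e-09 by limma). Between these lines 4 of the 20 were higher and 3 lower, beside 29.9% and 23.5% of all genes, with a median of -0.01.

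**Figure D4:**
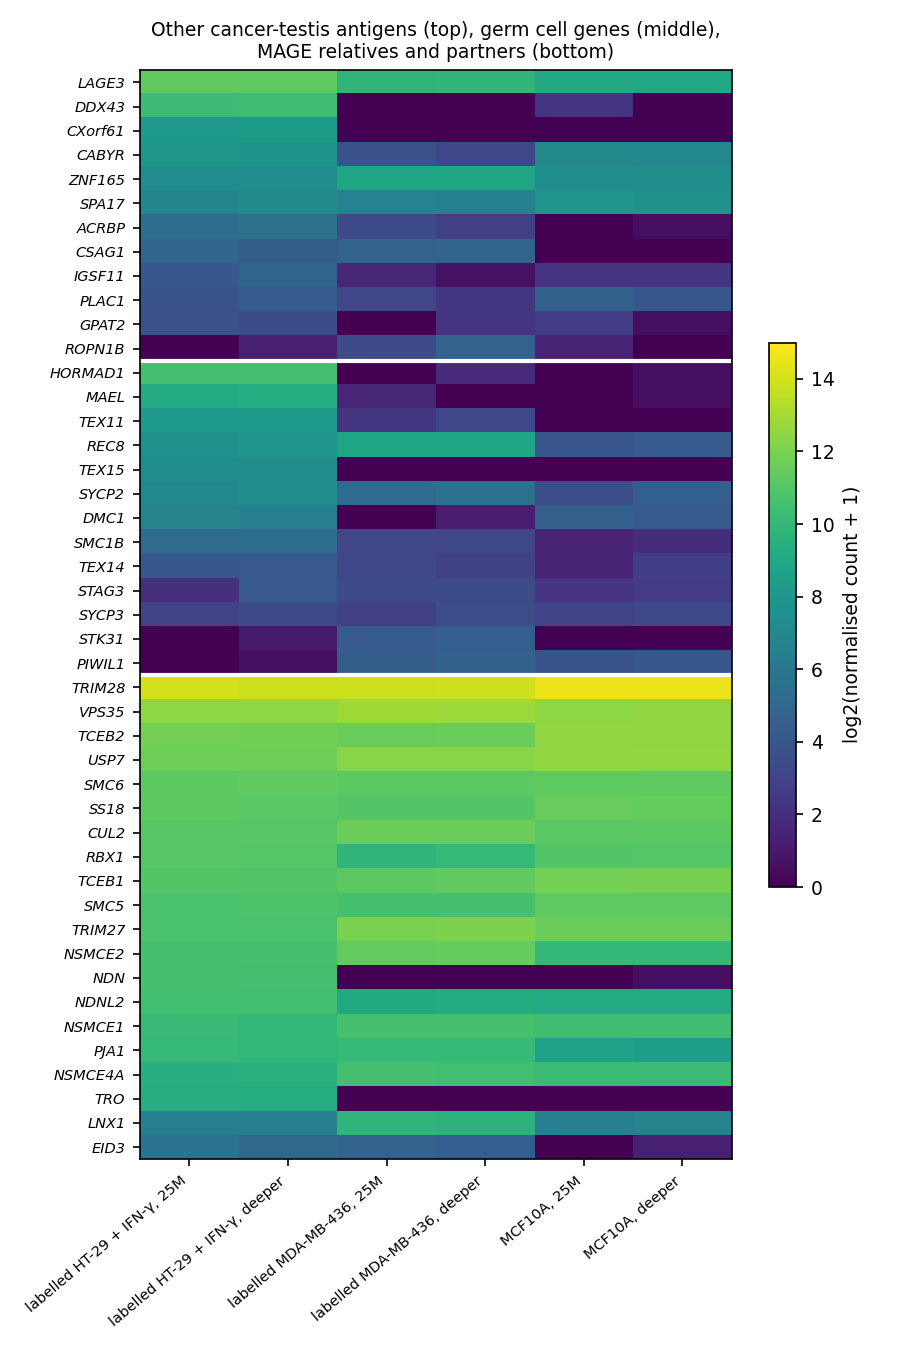
Level of the tested genes of the lists of other cancer-testis antigens (top), germ cell and meiosis genes (middle) and MAGE relatives and partners (bottom) in each of the 6 libraries, coloured by log2(normalised count + 1). DDX43, CXorf61, HORMAD1, MAEL, NDN and TRO are bright in the HT-29-labelled libraries and dark in the other 4, while REC8 and LNX1 are brightest in the MDA-MB-436-labelled ones.

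Genes of DNA methylation and promoter repression were the last list, of which 33 of 34 were tested. In the HT-29-labelled libraries, 6 were higher and 1 lower than in MCF10A, and in the MDA-MB-436-labelled ones, 7 were higher and 7 lower, with median log2 fold changes of -0.04 and 0.07. The shares of all genes were 28.4% and 18.1%, and 25.6% and 23.7%, and every count of this list lay below them. TET1, which oxidises methylated cytosine, had 165 and 170.7 normalised counts in the HT-29-labelled libraries, 0 and 2.46 in the MDA-MB-436-labelled ones, and 28.1 and 42.2 in MCF10A. It was called in all 3 comparisons, with a log2 fold change of 6.50 between the HT-29-labelled libraries and the MDA-MB-436-labelled ones (SE 0.546, adjusted p = 9.17e-06 by limma). DNMT3B, a de novo methyltransferase, had 406.5 and 453.6 in the HT-29-labelled libraries, 109.1 and 110.9 in the MDA-MB-436-labelled ones, and 93.6 and 97.7 in MCF10A.

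UHRF1, which recruits the maintenance methyltransferase, had 699.9 and 639.9 normalised counts in the MDA-MB-436-labelled libraries, against 2689 and 2750 in MCF10A (log2 fold change -2.02, adjusted p = 1.70e-08 by limma). TET3 was higher there, at 3265 and 3063 against 996.2 and 969.1. MBD2, which binds methylated DNA, was lower in the HT-29-labelled libraries, at 1250 and 1322 against 4857 and 4874 (log2 fold change -1.92, adjusted p = 6.13e-09 by limma). Between the HT-29-labelled libraries and the MDA-MB-436-labelled ones, 6 were higher and 3 lower, beside 29.9% and 23.5% of all genes, among the lower ones the DNA glycosylase MBD4. Whether any of these levels bears on those of the cancer-testis members was not tested.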

How the data were processed

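RNA-seq of 3 cell lines, 2 libraries each, was re-analysed from 6 deposited tables. The submitters' processing notes name FastQC, STAR 2.2.0, HTSeq and hg19 without settings. Annotation and strand setting are not stated in any source used here. Per the file headers, the columns of each table are symbols, normalised counts and RPKM. The authors' normalised counts act as a signal with a single scale factor for each library, and 100% of values came out as whole reads within a tolerance of 0.001. The deposited RPKM column was out of register with the symbols in 3643 rows, 9 of them members, and was not used for results. Of 23368 rows, 28 with names read as dates or repeated (4 of these) were left out, which kept 23340.

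The main test was limma 3.58.1 in R 4.3.3, with trend and robust settings, on log2(normalised count + 1). Genes needed 10 normalised counts in 2 libraries. One model of the 6 libraries left 3 residual degrees of freedom, and p-values were adjusted by Benjamini-Hochberg over 15638 genes per comparison. Fold changes on this scale understate the change of low genes. Folds in words are ratios of pooled reads per library exposure with 95% exact counting intervals, and a line at 0 reads was set to 3 reads over the line. Intervals and floors cover counting error only. Lengths and shared 50-base windows came from GENCODE v29, promoters from RefSeq. edgeR 4.0.16 and DESeq2 1.42.0 on recovered reads were alternatives, and the tests were tried on simulated data.

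The members and lists were chosen with earlier results of these data known. Every member at 10 normalised counts in a library is named, with up to 2 genes per list, direction and comparison by size of change. One result that this rule would name is not reported here. The label of the deeper MCF10A library reads 100M in its title and 50M in its sample type. The median chi-square between the 2 libraries of a line was 0.761 for the HT-29-labelled ones, 0.712 for the MDA-MB-436-labelled ones and 0.567 for MCF10A. Sampling alone gives 0.455. These values cannot tell separate cultures from technical repeats, and the libraries entered the fit as separate samples.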

Additional observations from a re-analysis of the deposited data

How the results depend on the processing

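Over 15 alternatives, 667 of 695 values for single members kept their direction and side of the threshold, 15 lost and 5 gained a call, and 8 reversed. The number of members higher in the HT-29-labelled libraries than in MCF10A was 16. It was 8 under a filter of 10 CPM in 2 libraries, which left 10 members, and 6 to 16 with each library left out. Against the MDA-MB-436-labelled libraries it was 13, then 8 under that filter and 4 to 13 with each left out. The 3 members lower there became 0 under that filter and 1 to 3 with each library left out. In the MDA-MB-436-labelled libraries the 3 members higher than in MCF10A became 0 under that filter and 2 to 4 with each library left out, with MAGEA6 and MAGEA12 untested without either MDA-MB-436-labelled library. The 3 lower ones became 1 at a pseudocount of 5, 1 under that filter, 1 by DESeq2 and 1 to 3 with each library left out. Fewer members were tested under the filter, without an HT-29-labelled library (9) and without an MDA-MB-436-labelled one (16).

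Reversals concerned members at a few reads and SSX2IP. For the MDA-MB-436-labelled libraries against MCF10A, MAGEA4 was at -0.15 by edgeR, -0.20 without the 25M MCF10A library and -1.50 to 1.91 with each MDA-MB-436-labelled library left out. MAGEA10 was at -0.72 without the deeper MCF10A library and -0.76 to 0.85 with each MDA-MB-436-labelled library left out. MAGEA11 was at -0.23 without the 25M MCF10A library and -0.29 to 0.40 with each MDA-MB-436-labelled library left out. SSX2IP was at 0.29 with library size scaling for the HT-29-labelled libraries against the MDA-MB-436-labelled ones. The cause was not tested.

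With the 25M or deeper label as a replicate block, 16 members were higher in the HT-29-labelled libraries than in MCF10A, as without it, and no call of a member changed. The label says how deep a library was sequenced and does not pair the samples. A member at 0 could hold up to 3 reads over a line at this depth.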

Other observations

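Neighbours of the MAGE-A, SSX and XAGE clusters on the X chromosome were followed as a list of 37 genes. Of these, 4 had 0 reads in all libraries, and shared windows were not counted for this list either. Of the 37, 28 were tested. Against MCF10A, 17 were higher and 2 lower in the HT-29-labelled libraries, beside 28.4% and 18.1% of all genes, and 8 were higher and 3 lower in the MDA-MB-436-labelled ones, beside 25.6% and 23.7%. The median log2 fold changes were 1.28 and 0.45, beside 0.13 and 0 for all genes. The list was fixed with earlier results known, and a gene near 0 in MCF10A was tested only where another line brought it over the filter. BGN, the proteoglycan biglycan, had 9868 and 9016 normalised counts in the HT-29-labelled libraries, 1386 and 1343 in the MDA-MB-436-labelled ones, and 11.2 and 8.35 in MCF10A. GSPT2, a translation termination factor, had 1038 and 1019 in the HT-29-labelled libraries, against 2.06 and 4.93 in the MDA-MB-436-labelled ones and 3.75 and 1.47 in MCF10A. MTMR1, a lipid phosphatase, went the other way, at 18.0 and 18.1 in the HT-29-labelled libraries, 1089 and 1144 in the MDA-MB-436-labelled ones, and 837 and 779.1 in MCF10A.

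Genes side by side in the MAGE-A cluster had different levels. In RefSeq the order there runs GABRQ, MAGEA3, CSAG2, MAGEA2B, CSAG1, MAGEA12, MAGEA2, CSAG3 and MAGEA6, leaving out pseudogenes and non-coding genes. GABRQ, a GABA receptor subunit, had 165 and 166.3 normalised counts in the HT-29-labelled libraries, 0 in the MDA-MB-436-labelled ones, and 0 and 1.96 in MCF10A, while MAGEA3 stood highest in the MDA-MB-436-labelled libraries. CSAG1 and MAGEA12 are transcribed away from each other from start sites 36 bases apart at the nearest. MAGEA12 was lower in the HT-29-labelled libraries than in the MDA-MB-436-labelled ones, with a log2 fold change of -4.40, and CSAG1 was at -0.17 (adjusted p = 0.632 by limma). For CSAG1 the ratio of pooled reads was 1.22-fold lower, with an interval of 0.836 to 1.79. MAGEA12 overlaps the pseudogene CSAG4, so part of its reads cannot be assigned with certainty.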
